A study of Homo sapiens with 16 samples.

Results

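The nuclear genes for mitochondrial ribosomal proteins were followed through RNA-seq of U2OS cells, a human osteosarcoma line, given harmine or INDY. Members were every row of the gene table whose symbol is MRPL or MRPS followed by a number and at most a letter A to C, with a mean of at least 10 counts. This chose 78 of 59081 genes, 49 named for the large subunit (MRPL) and 29 for the small subunit (MRPS), and all 78 passed the filter on low counts, alongside 20446 genes tested in all. The study examined harmine and INDY as small-molecule inhibitors of the kinase DYRK1A, which acts on the DREAM repressor complex of non-dividing cells. Confluent cells stood in serum-free medium for 48 h in all groups. For the last 24 h they received 10 µM harmine hydrochloride or its vehicle water, or 25 µM INDY or its vehicle DMSO, with 4 libraries in each of the 4 groups. Doses and vehicles differ between the compounds, so each was compared with its own control. All cells are of 1 established line, and nothing in the sources used here tells whether libraries of one group were separate cultures. The p-values therefore rest on the spread among these 4 libraries per group, which may be technical.

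The mitochondrial ribosome translates the few messages of mitochondrial DNA, which code for core subunits of the respiratory chain and ATP synthase. Its ribosomal RNAs are transcribed inside the organelle, whereas every one of its proteins is made from a nuclear gene, imported and assembled there. The large subunit holds the peptidyl transferase centre and the exit tunnel, and the small subunit holds the decoding site. A part of these proteins has a counterpart in bacterial ribosomes and the rest exists only in mitochondria. The symbols do not always give the subunit: the MRPS30 and MRPS18A proteins sit in the large subunit, and the MRPS36 protein belongs to the 2-oxoglutarate dehydrogenase complex. They were kept here under their symbols.

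Library totals ranged from 44301642 to 65889487 counts. On a principal component analysis of all genes tested, INDY replicates 1 and 3 stood apart from replicates 2 and 4 (96.0 and 105.4 against 80.1 and 85.1 on the first component, 54.3% of the variance), and water replicates 1 and 4 stood apart from 2 and 3 (26.6 and 34.6 against 4.3 and 3.9 on the third, 4.8%). Counts of members without such a pair are given below beside the main counts. Of 8 mesenchymal markers, COL1A2 was near 0 (0.19 CPM, counts scaled to a common library total, at most) and the others were present. Their summed level was 3800 to 4386 CPM with water, 5450 to 5643 with harmine, 4043 to 4369 with DMSO and 3599 to 4082 with INDY. Of the 7 that were tested, harmine raised 5 and lowered 2 (edgeR, adjusted p under 0.01, median log2 fold change 0.29). INDY raised 1 and lowered 6 (median -0.51). Among all genes tested, 24.9% were higher and 22.8% lower with harmine, and 33.2% and 33.4% with INDY. Among 5 epithelial markers, KRT5, KRT14 and CDH1 stayed below 0.51 CPM. The list's sum, nearly all of it CLDN4, was 60.3 to 79.0 CPM with water, 30.4 to 33.5 with harmine, 51.0 to 61.8 with DMSO and 36.4 to 48.4 with INDY. The 5 blood cell markers summed to 0.39 to 0.45 CPM with water, 0.38 to 0.87 with harmine, 0.22 to 0.34 with DMSO and 1.13 to 2.34 with INDY, where CD14 was higher (log2 fold change 4.41, adjusted p = 2.52e-09) and PTPRC lower (-2.93). CD3E and HBB stayed below 0.07 CPM. The part of these shifts in the results was not tested.

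Members together took 0.354 to 0.370% of all counts with water, 0.377 to 0.385% with harmine, 0.361 to 0.371% with DMSO and 0.383 to 0.405% with INDY. The harmine and INDY libraries all lay above every library of their own control. Per kilobase of the reference transcript, control levels ran from 2.21 to 212 CPM with a median of 30.5. MRPL51, whose mature protein is a mitochondria-specific part of the large subunit, was highest at 212 CPM per kb, followed by MRPL33 (108) and MRPS24 (103). Of the 100-nt stretches of these 2 transcripts, 14.5% and 19.9% also occur in transcripts of other genes, so their levels are less certain. MRPL42 (2.21), MRPS33 (3.89) and MRPS14 (5.69) were lowest. The MRPL42 reference transcript is 15557 nt long, so its value per kilobase rests on the annotated end. MRPL51 held 169 to 196 CPM in the water libraries, 198 to 205 with harmine, 193 to 201 with DMSO and 227 to 235 with INDY. It was called higher with both compounds, with log2 fold changes of 0.15 ± 0.04 (SE, adjusted p = 0.00146) and 0.23 ± 0.04 (adjusted p = 9.14e-06). Without water replicates 1 and 4 the harmine value was 0.08 and not called (adjusted p = 0.0408).

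Harmine moved many members by a little. Of 49 large subunit genes, 23 were higher and 7 lower than with water (edgeR quasi-likelihood test, Benjamini-Hochberg adjusted p under 0.01 over all genes tested), and of 29 small subunit genes 14 were higher and 4 lower. Among all genes tested, 24.9% were higher and 22.8% lower. The median log2 fold change was 0.06 for large subunit genes (range -0.34 to 0.52) and 0.07 for small subunit genes (-0.32 to 0.47), beside 0.02 over all genes tested. Scaling by library totals alone gave 18 higher and 10 lower large subunit genes, and 11 higher and 6 lower small subunit genes. The medians were then 0.01525 and 0.02223, beside -0.03 over all genes tested. Without water replicates 1 and 4, 18 large subunit genes were higher and 6 lower, with 11 and 4 for the small subunit. No member changed by 1.5-fold or more in either direction, at an adjusted p under 0.01 or at an unadjusted p under 0.05 with edgeR, nor with DESeq2 or limma voom, where 8.41% of all genes tested rose and 7.90% fell by as much. In bulk RNA, fewer cells that express a gene and less of its RNA per cell cannot be told apart.

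The largest rise with harmine was that of MRPL37 (chr1:54184041-54225464, GRCh38, plus strand), a mitochondria-specific protein of the large subunit. The water libraries held 76.8, 79.5, 77.5 and 75.0 CPM, and the harmine libraries 107, 114, 110 and 114. Every harmine library lay above every water library, and the log2 fold change was 0.52 ± 0.03 (1.44-fold, adjusted p = 4.33e-11). MRPL41, a mitochondria-specific protein with its gene at chr9:137551879-137552555, followed with 17.6, 18.9, 17.7 and 17.1 CPM with water and 21.4, 25.2, 24.4 and 25.4 with harmine. All 4 harmine values were above the water values (0.44 ± 0.06, adjusted p = 2.60e-06). MRPL24, a counterpart of bacterial L24 beside the exit tunnel, had 38.2, 44.5, 44.7 and 36.2 CPM with water and 53.3, 56.5, 55.3 and 56.0 with harmine, a log2 fold change of 0.43 ± 0.08 (adjusted p = 7.67e-05). Its water libraries 2 and 3 lay above 1 and 4, and no value overlapped. MRPL53, next in size, rose by 0.42 ± 0.04 (adjusted p = 1.57e-08). Of the stretches of 100 nt in its transcript, 51.5% also occur in transcripts of the neighbouring CCDC142, so its counts could have been divided between these genes.

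Among small subunit genes, MRPS33 rose most. Its level was 16.4, 16.5, 16.2 and 15.9 CPM with water and 23.1, 22.4, 22.0 and 22.4 with harmine, with no overlap (0.47 ± 0.05, adjusted p = 2.79e-07). MRPS26, like MRPS33 a mitochondria-specific protein, went from 16.8, 17.6, 16.9 and 16.1 CPM to 20.8, 23.9, 24.0 and 24.3 (0.47 ± 0.07, adjusted p = 1.17e-05). Harmine replicate 1 was the lowest of its 4 libraries and still above every water library. MRPS11, the counterpart of bacterial S11 on the platform of the small subunit, rose by 0.36 ± 0.05 (adjusted p = 1.82e-06), and MRPS18B, 1 of 3 human S18 proteins, rose by 0.32 ± 0.04 (adjusted p = 3.25e-06).

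The falls with harmine were smaller in number. MRPL30 (chr2:99181152-99199561, plus strand), the counterpart of bacterial L30, went from 54.6, 60.8, 58.3 and 52.4 CPM to 42.9, 45.8, 45.3 and 45.1. All 4 harmine libraries lay below the water libraries, and the log2 fold change was -0.34 ± 0.06 (0.792-fold, adjusted p = 0.000198). MRPS28, a protein of the small subunit, had 38.0, 38.0, 38.9 and 37.9 CPM with water and 30.9, 29.7, 31.3 and 30.4 with harmine (-0.32 ± 0.04, adjusted p = 4.03e-06). Of its transcript, 20.3% of 100-nt stretches also occur in other genes' transcripts. MRPL50 (-0.26 ± 0.04), MRPL47 (-0.24 ± 0.03), MRPS36 (-0.24 ± 0.05), MRPS10 (-0.21 ± 0.03) and MRPS35 (-0.15 ± 0.03) were lower as well. For MRPL1, the counterpart of bacterial L1, the call rested near the threshold (-0.19 ± 0.06, adjusted p = 0.00953), and it was lost without any of 7 single libraries, namely water 1, 3 or 4, harmine 2 or 4, DMSO 4 or INDY 1 (adjusted p = 0.011 to 0.0262).

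**Figure D1:**
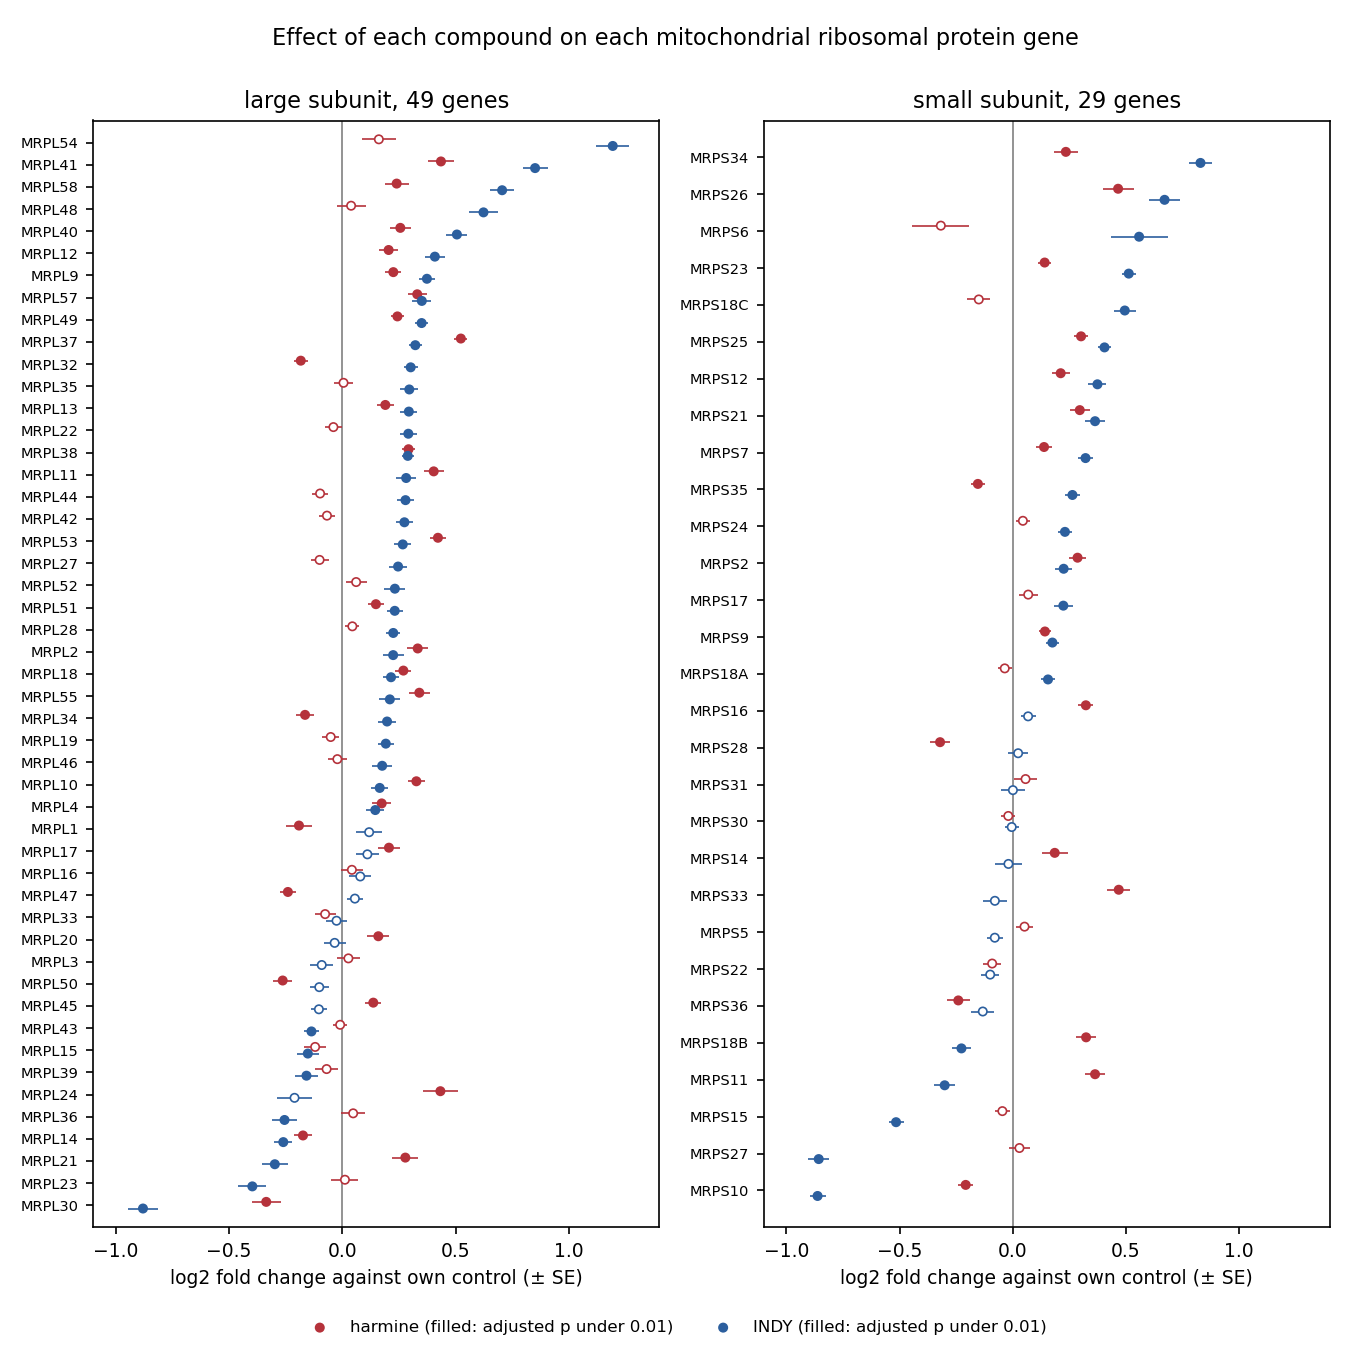
Log2 fold change of each of the 78 genes (x axis, ± SE of the fit) for harmine against water (red) and INDY against DMSO (blue), with large subunit genes on the left and small subunit genes on the right, sorted by the INDY effect. Filled points have an adjusted p under 0.01. Harmine effects stay between -0.34 and 0.52, and INDY effects run from -0.88 to 1.19.

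INDY moved more members and moved them further. It left 31 of 49 large subunit genes higher and 8 lower, and 15 of 29 small subunit genes higher and 5 lower, beside 33.2% higher and 33.4% lower among all genes tested. Without INDY replicates 1 and 3, 33 large subunit genes were higher and 5 lower, with 15 and 5 for the small subunit. The median log2 fold change was 0.215 for large subunit genes (range -0.88 to 1.19) and 0.155 for small subunit genes (-0.86 to 0.83), beside -0.01 over all genes tested. At 1.5-fold or more, 6 members were higher and 3 lower, where 14.3% of all genes tested rose and 19.4% fell by that much. In each library the median over large subunit genes, relative to the mean of the DMSO libraries, was 0.18 to 0.25 with INDY on the log2 scale, and over small subunit genes 0.13 to 0.15. For harmine relative to water these medians were 0.05 to 0.12 and 0.02 to 0.13. All were above every control median of the same subunit.

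MRPL54 (chr19:3762682-3768575, plus strand), a small mitochondria-specific protein of the large subunit, had the largest change of all members. It stood at 7.21, 6.26, 5.77 and 6.18 CPM with DMSO and at 13.75, 14.98, 14.79 and 14.74 with INDY. The groups were far apart, at a log2 fold change of 1.19 ± 0.07 (2.29-fold, adjusted p = 3.93e-11). MRPL41 went from 22.3, 22.6, 19.8 and 20.2 CPM to 38.0, 39.1, 39.6 and 36.6 (0.85 ± 0.06, 1.80-fold, adjusted p = 8.25e-11), again without overlap. MRPL58, also known as ICT1, is a peptidyl-tRNA hydrolase that became a part of the large subunit. It rose from 14.5, 13.1, 13.4 and 12.8 CPM to 22.3, 21.7, 22.0 and 21.9 (0.71 ± 0.05, adjusted p = 6.22e-10). MRPL48 rose by 0.62 ± 0.06 (adjusted p = 4.96e-08).

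In the small subunit, MRPS34 (chr16:1771890-1773150, minus strand) rose most. This mitochondria-specific protein had 77.4, 68.9, 66.8 and 62.8 CPM with DMSO and 122, 126, 121 and 121 with INDY (0.83 ± 0.05, 1.78-fold, adjusted p = 5.43e-11). DMSO replicate 1 was the highest control and lay far below the INDY libraries. MRPS26 rose by 0.67 ± 0.07 (adjusted p = 3.67e-08) and MRPS23 by 0.51 ± 0.03 (adjusted p = 1.91e-11). MRPS6, the counterpart of bacterial S6, was called higher at 0.56 ± 0.13 (adjusted p = 0.000564), but its libraries were uneven. INDY replicates 1 and 3 held 42.8 and 52.5 CPM and replicates 2 and 4 held 33.1 and 34.6, against 30.5, 26.6, 26.8 and 27.0 with DMSO. Without INDY 1 and 3 the log2 fold change was 0.29 and not called (adjusted p = 0.0273).

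The deepest falls with INDY were in MRPL30, MRPS10 and MRPS27. MRPL30 went from 60.1, 65.3, 63.7 and 64.7 CPM with DMSO to 32.2, 37.1, 29.8 and 38.9 with INDY (-0.88 ± 0.07, 0.543-fold, adjusted p = 5.64e-10). MRPS10 (chr6:42206807-42217861, minus strand), the counterpart of bacterial S10, went from 50.0, 50.2, 50.9 and 50.0 CPM to 26.8, 29.2, 26.3 and 28.4 (-0.86 ± 0.04, adjusted p = 1.35e-13). MRPS27 (chr5:72214953-72321717, minus strand), a pentatricopeptide repeat protein with no bacterial counterpart, went from 95.0, 96.5, 104 and 102 CPM to 52.6, 58.8, 49.4 and 58.6 (-0.86 ± 0.05, 0.552-fold, adjusted p = 7.98e-12). In all 3 genes INDY replicates 1 and 3 were the lowest libraries, and replicates 2 and 4 were still far under every DMSO library. MRPS15 fell by 0.52 on the log2 scale (SE 0.03, adjusted p = 7.87e-11), and MRPL23, which lies at the exit tunnel, fell by 0.40 (SE 0.06, adjusted p = 1.02e-05). MRPL21 (-0.30 ± 0.06) and MRPL14 (-0.26 ± 0.04), the counterpart of bacterial L14 at the subunit interface, and MRPS11 (-0.30 ± 0.05) were lower too.

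**Figure D2:**
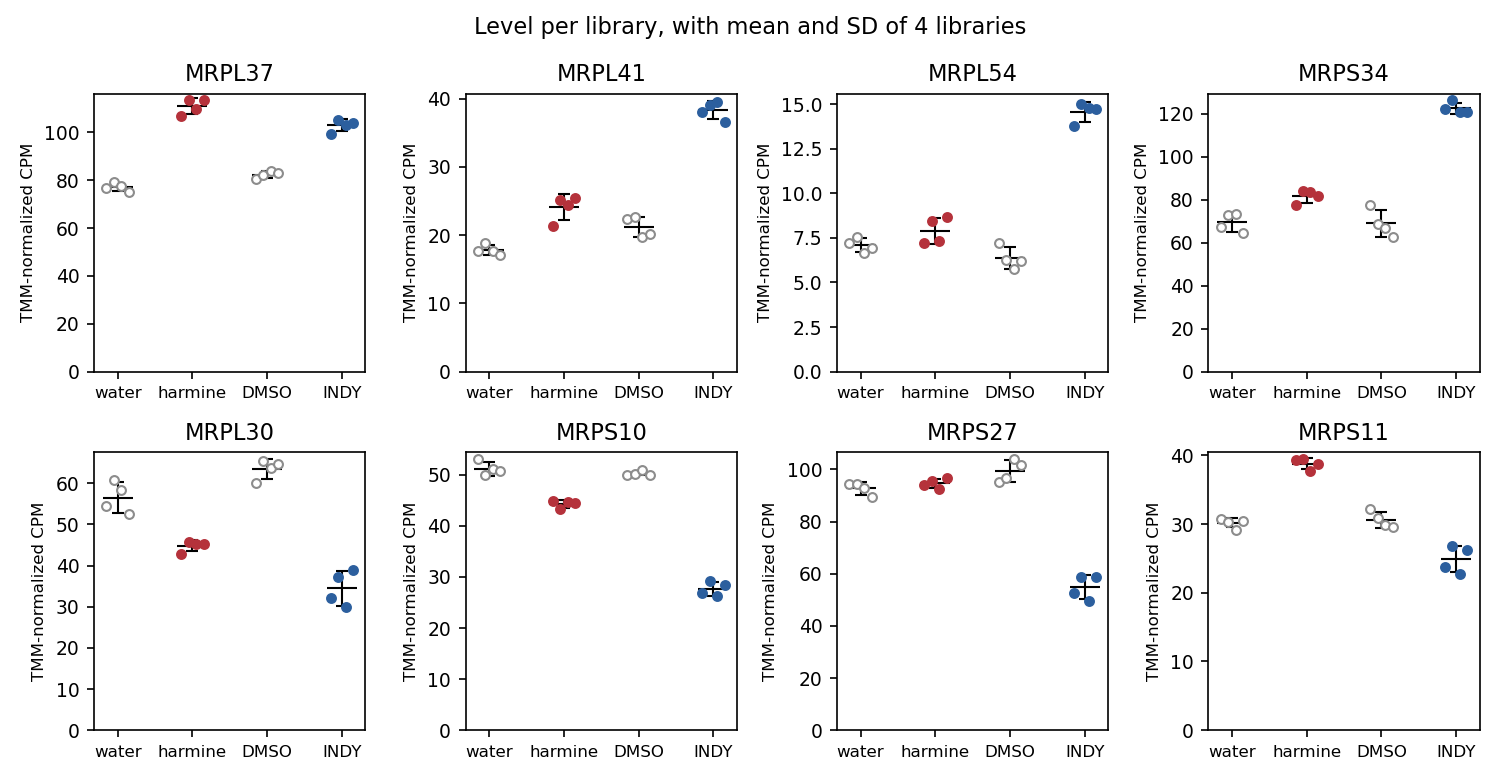
TMM-normalized CPM (y axis, from 0) of 8 genes in every library of the 4 groups (points), with the mean and SD of 4 libraries (black). The upper row holds genes that rose with INDY, and the lower row holds MRPL30, MRPS10, MRPS27 and MRPS11, which fell with it. MRPL54 stands at 13.75 to 14.98 CPM with INDY against 5.77 to 7.21 with DMSO.

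Set side by side, 27 members were called higher with both compounds (18 large and 9 small, beside 12.1% of all genes tested) and 3 lower with both, namely MRPL14, MRPL30 and MRPS10 (12.0% of all genes tested). Without water replicates 1 and 4 these numbers were 23 and 2, since MRPL4, MRPL51, MRPS7 and MRPS34 were then no longer called higher with both and MRPL14 no longer lower (with harmine MRPS34 had an adjusted p of 0.0289 and MRPL14 of 0.0221). Those higher with both included the stalk and its base, where translation factors dock. MRPL10 rose by 0.33 ± 0.04 with harmine and 0.17 ± 0.04 with INDY, MRPL11 by 0.40 ± 0.04 and 0.28 ± 0.04, and MRPL12 by 0.20 ± 0.04 and 0.41 ± 0.04. Of the 100-nt stretches of MRPL12, 66.2% also occur in transcripts of another annotated gene. MRPS12, the counterpart of the decoding-site protein S12, was likewise higher with both (0.21 ± 0.04 and 0.37 ± 0.04). There were 12 members (15.4%) called with harmine only, beside 12.8% of all genes tested, and 23 (29.5%) with INDY only, beside 31.7%. Both shares are near those of all genes. Without water replicates 1 and 4 they numbered 6 and 27, and without INDY replicates 1 and 3 they numbered 11 and 17. MRPL3, MRPL16, MRPL33, MRPS5, MRPS22, MRPS30 and MRPS31 were called with neither (20.6% of all genes tested), at log2 fold changes of -0.09 to 0.06 with harmine and -0.10 to 0.08 with INDY.

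The effects went in opposite directions for 6 members. MRPL21, MRPS11 and MRPS18B rose with harmine and fell with INDY (6.26% of all genes tested), whereas MRPL32, MRPL34 and MRPS35 fell with harmine and rose with INDY (4.55%). MRPS11 (chr15:88467453-88480776, plus strand) showed this plainly. It had 30.7, 30.3, 29.2 and 30.5 CPM with water and 39.4, 39.5, 37.7 and 38.7 with harmine, but 32.2, 30.9, 29.9 and 29.5 with DMSO and 23.7, 26.8, 22.8 and 26.3 with INDY. No treated library overlapped its own controls in either direction. MRPL32 had 38.3, 38.2, 39.1 and 37.4 CPM with water and 33.2, 35.0, 33.2 and 33.4 with harmine, and 36.9, 36.1, 38.1 and 37.3 with DMSO and 45.4, 44.8, 45.9 and 46.8 with INDY. Its log2 fold changes were -0.18 ± 0.03 and 0.30 ± 0.03. Without INDY replicates 1 and 3 the members called in opposite directions numbered 9, with MRPL1, MRPL44 and MRPS18C added. Leaving out water replicates 1 and 4 gave 8, with MRPL24 and MRPL27 added.

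A test of the difference between the effects found the harmine effect above the INDY effect in 14 members and below it in 27 (7 and 18 in the large subunit, 7 and 9 in the small), beside 28.1% above and 26.4% below among all genes tested. Without INDY replicates 1 and 3 these were 13 and 34 members. The harmine effect lay furthest above in MRPS27 (a difference of 0.89 on the log2 scale, SE 0.07, adjusted p = 1.51e-09), MRPS11 (0.66, SE 0.07), MRPS10 (0.65, SE 0.05) and MRPL24 (0.64, SE 0.11). It lay furthest below in MRPL54 (-1.03, SE 0.10, adjusted p = 9.46e-08), MRPS6 (-0.88, SE 0.18), MRPS18C (-0.64, SE 0.07) and MRPS34 (-0.59, SE 0.07). The MRPS6 value rests on uneven libraries on both sides. Its water replicates 1 and 4 held 39.7 and 42.9 CPM and replicates 2 and 3 held 30.5 and 29.9. The harmine libraries held 28.7, 28.0, 29.9 and 27.8, and the uneven INDY libraries are given above. MRPL54 had 7.19, 7.57, 6.63 and 6.92 CPM with water and 7.23, 8.43, 7.32 and 8.64 with harmine, where the groups overlapped and the log2 fold change of 0.16 ± 0.07 was not called (adjusted p = 0.0729). For MRPS27 the harmine libraries at 94.0, 95.6, 92.5 and 96.6 CPM overlapped the water libraries at 94.6, 94.3, 93.0 and 89.3 (0.03 ± 0.05, adjusted p = 0.61). Across the 78 members the effects correlated with a Pearson r of 0.321 (Spearman 0.303), beside 0.347 (0.297) over 15194 protein-coding genes tested. These are correlations across genes, which share libraries and are not independent replicates.

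The S18 proteins form a family of 3 genes on the nuclear side, and their values are set out separately here. MRPS18A had log2 fold changes of -0.04 ± 0.03 with harmine (adjusted p = 0.334) and 0.16 ± 0.03 with INDY (adjusted p = 0.000162). MRPS18B had 98.7, 107, 109 and 101 CPM with water, 131, 130, 129 and 130 with harmine, 103, 104, 104 and 102 with DMSO and 84.0, 95.3, 81.1 and 92.4 with INDY, so that it rose with harmine and fell with INDY by -0.23 ± 0.04. MRPS18C had 17.1, 17.1, 15.5 and 15.6 CPM with water and 15.38, 13.96, 14.40 and 15.11 with harmine (-0.15 ± 0.05, adjusted p = 0.0163), and 16.4, 18.4, 17.0 and 16.1 with DMSO and 23.3, 23.5, 24.6 and 24.1 with INDY (0.49 ± 0.05, adjusted p = 3.51e-08). The difference between the effects was 0.55 for MRPS18B (adjusted p = 2.87e-07), -0.19 for MRPS18A (adjusted p = 0.000832) and -0.64 for MRPS18C (adjusted p = 2.59e-07).

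**Figure D3:**
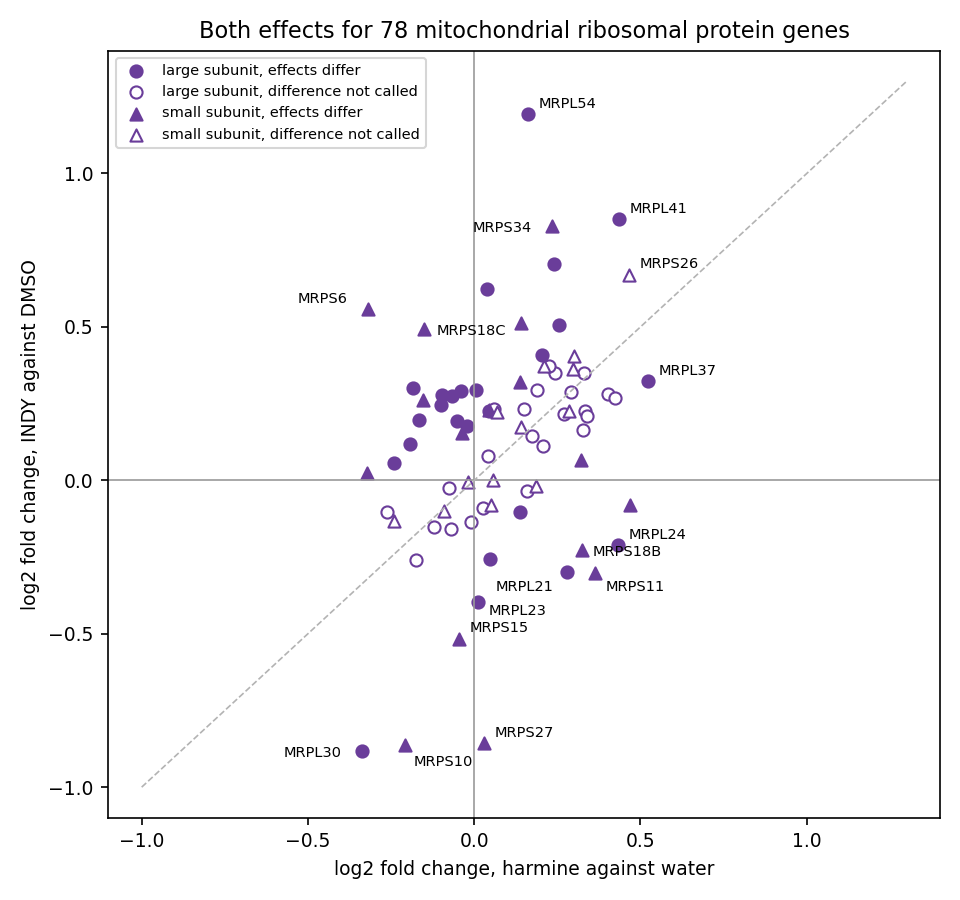
Log2 fold change with harmine (x axis) against that with INDY (y axis) for the 78 genes, with circles for the large and triangles for the small subunit. Filled symbols mark the 41 genes whose effects differed at an adjusted p under 0.01, and the dashed line marks equal effects. MRPL54 lies highest at 1.19 on the INDY axis, and MRPL30, MRPS10 and MRPS27 lie lowest.

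Short genes made up most of the rises. This relation was looked for after the effects were known. Of 35 members whose annotated span was under 10 kb, harmine raised 25 and lowered 0 (1 at an unadjusted p under 0.05 with edgeR, 0 with DESeq2 and 0 with limma voom), at a median log2 fold change of 0.23. Of 22 members of 10 to 25 kb it raised 6 and lowered 8 (median -0.08), and of 21 members of 25 kb or more it raised 6 and lowered 3 (median 0.03). Protein-coding genes tested showed no such step: 29.6% of those under 10 kb were higher and 23.1% lower, 30.3% and 23.9% from 10 to 25 kb, and 25.4% and 28.6% above. Without water replicates 1 and 4, harmine raised 19 of the 35 short members and lowered 1, and scaling by library totals alone gave 20 and 1.

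With INDY the same short members were 27 higher and 3 lower (MRPL36, MRPS15 and MRPS18B), at a median of 0.23. The 22 of 10 to 25 kb were 8 higher and 8 lower (median -0.05), and the 21 longest were 11 higher and 2 lower (median 0.18). Among protein-coding genes 37.3% were higher and 31.2% lower under 10 kb, 40.7% and 30.8% from 10 to 25 kb, and 32.3% and 38.9% above. The members of 10 to 25 kb, at 36.4% each way, lay near that background. Across members, log2 gene span had a Pearson r of -0.461 with the harmine effect and -0.287 with the INDY effect, beside -0.0678 and -0.136 over protein-coding genes. GC content of the reference transcript moved with span. Its median was 53.1% in members under 10 kb, 43.9% from 10 to 25 kb and 43.0% above, and across members it had an r of 0.512 with the harmine effect and 0.298 with the INDY effect (0.119 and 0.0337 over protein-coding genes). The authors ran Salmon, which estimated the counts, with its option for GC bias. The fit here used the rounded counts with no GC term, and whether they still carry such a bias was not tested. The parts of span and GC content in these effects were not tested apart.

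**Figure D4:**
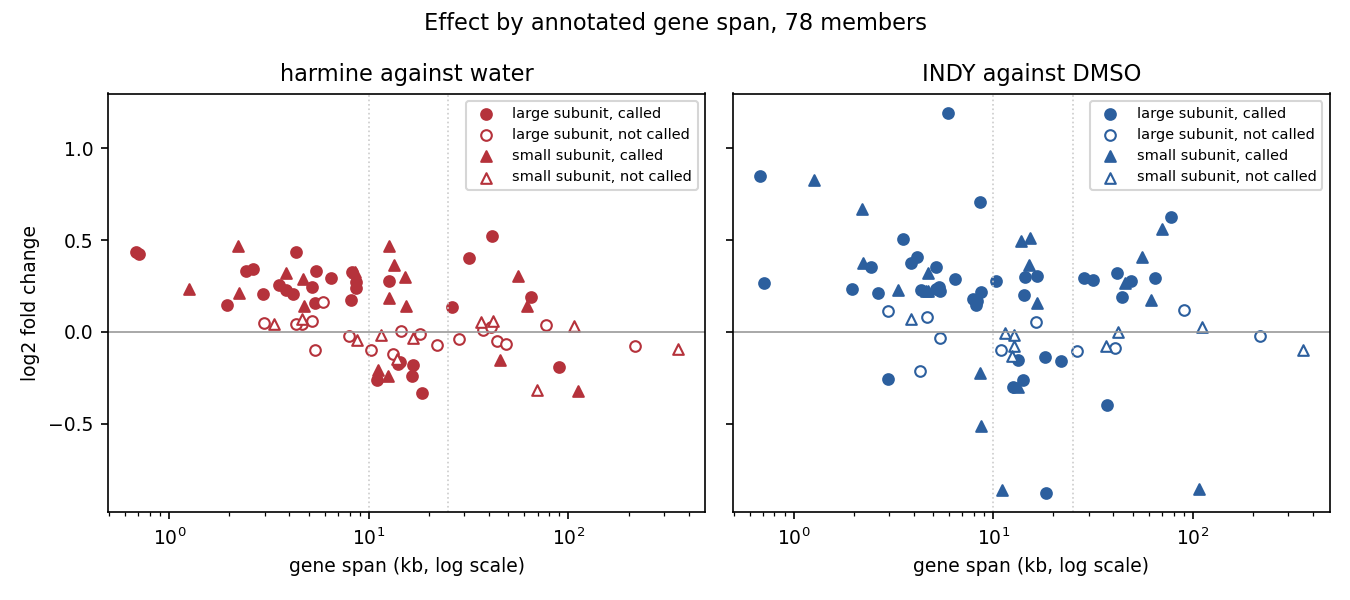
Log2 fold change (y axis) against annotated gene span in kb (x axis, log scale) for the 78 genes, with harmine on the left and INDY on the right, and dotted lines at 10 and 25 kb. Filled symbols have an adjusted p under 0.01. No filled point lies below 0 under 10 kb with harmine, and 25 lie above.

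Members were also divided by whether the protein has a counterpart in bacterial ribosomes, by a list written from general knowledge with the effects already known. Of 45 with a counterpart, harmine raised 20 and lowered 8 (median 0.05), and INDY raised 24 and lowered 9 (median 0.17). Among 33 specific to mitochondria, harmine raised 17 and lowered 3 (median 0.14), and INDY raised 22 and lowered 4 (median 0.26). Over all genes tested, 24.9% were higher and 22.8% lower with harmine (median 0.02). With INDY these shares were 33.2% and 33.4% (median -0.01). Within the large subunit, INDY raised 16 of 20 mitochondria-specific members (median 0.28) and 15 of 29 with a counterpart (median 0.15). Among genes named for the small subunit it raised 6 of 13 (median 0.00) and 9 of 16 (median 0.20), so the medians were ordered the other way there. These counts follow the symbols and include MRPS30, MRPS18A and MRPS36, whose proteins lie outside the small subunit. The order without them was not tested.

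Promoter sequence was available for 69 members in a RefSeq table on GRCh38.p14, as windows of 300 bases from 250 before to 50 after the annotated start. MRPL2, MRPL10, MRPL13, MRPL15, MRPL21, MRPL23, MRPL35, MRPS28 and MRPS36 had no entry. Genes of mitochondrial biogenesis are known for binding sites of ETS factors such as GABPA (NRF2), of YY1 and of NRF1 close to their starts. The windows were searched on both strands for the cores CCGGAAG (ETS), AAGATGGC (YY1), CGCANGCG (NRF1), TGACGTC (CREB), CACGTG (E-box), and TTTCCCGC or TTTGGCGC (E2F). None of these cores contains another, but matches can overlap. The ETS core was in 42.0% of members, beside 10.7% of all 27305 promoters in the table and 16.9% of the 12931 promoters of genes tested. The YY1 core was in 29.0% of members, beside 3.0% and 4.7%. For NRF1 the shares were 18.8%, 10.6% and 16.9%, and for E-box 8.7%, 7.4% and 9.6%. CREB matched in 2.9% of members, beside 3.6% and 5.2%, and E2F in 4.3%, beside 2.3% and 3.4%. A match to these letters is not evidence that a factor binds.

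The ETS core stood upstream of members that rose and of members that fell. The following stretches of 100 bases, 5′ to 3′ on the gene's strand, carry it in capitals (in either orientation) and belong to members that hold it among those with large INDY effects in either direction. Those of MRPL54, MRPS34, MRPS26, MRPL58 and MRPS10 end at the base before the RefSeq start, and that of MRPL30 ends 51 bases before it. In MRPL54 the last base of a CREB core is also the first of the ETS core.
MRPL54, higher with INDY, chr19:3762582-3762681 (plus strand): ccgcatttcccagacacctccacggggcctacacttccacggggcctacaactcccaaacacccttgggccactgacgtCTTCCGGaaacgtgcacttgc
MRPS34, higher with both, chr16:1773135-1773234 (minus strand): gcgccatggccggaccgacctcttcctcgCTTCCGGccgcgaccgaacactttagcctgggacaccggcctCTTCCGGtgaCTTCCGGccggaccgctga
MRPS26, higher with both, chr20:3045952-3046051 (plus strand): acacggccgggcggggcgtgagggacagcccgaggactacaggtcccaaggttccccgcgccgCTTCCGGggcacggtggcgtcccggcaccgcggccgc
MRPL58, higher with both, chr17:75012570-75012669 (plus strand): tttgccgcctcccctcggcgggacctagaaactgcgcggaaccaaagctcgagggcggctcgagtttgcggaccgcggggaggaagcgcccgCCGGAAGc
MRPL30, lower with both, chr2:99181034-99181133 (plus strand): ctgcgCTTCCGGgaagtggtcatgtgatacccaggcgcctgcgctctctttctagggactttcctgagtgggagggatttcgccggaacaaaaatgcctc
MRPS10, lower with both, chr6:42217862-42217961 (minus strand): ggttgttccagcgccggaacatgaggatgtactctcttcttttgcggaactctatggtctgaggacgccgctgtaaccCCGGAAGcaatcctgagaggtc
With the ETS core, harmine raised 13 of 29 members and lowered 3, and INDY raised 17 and lowered 3. Without it, harmine raised 20 of 40 and lowered 6, and INDY raised 25 and lowered 7. The medians with and without it were 0.06 and 0.10 for harmine, and 0.23 and 0.20 for INDY. Over all genes tested, harmine raised 24.9% and lowered 22.8%, and INDY raised 33.2% and lowered 33.4%.

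The YY1 core lay mostly just behind the start. In 15 of the 69 windows (21.74%) it was found on the gene's own strand within the 50 bases from the start, beside 1.39% of all promoters and 2.62% of those of genes tested. The stretches of 24 bases below show the core in capitals, for MRPL51, the member with the highest level, and for 5 others with different effects.
MRPL51, chr12:6493228-6493251 (minus strand): ggtaaggcccAAGATGGCtgtctt
MRPL46, chr15:88467367-88467390 (minus strand): gggagaacgaAAGATGGCggcgcc
MRPS10, chr6:42217839-42217862 (minus strand): cgggaccggcAAGATGGCggcgcg
MRPS18A, chr6:43687769-43687792 (minus strand): taggtttttgAAGATGGCggccct
MRPS18B, chr6:30617853-30617876 (plus strand): ggcgtacgtcAAGATGGCggcgtc
MRPS27, chr5:72320211-72320234 (minus strand): ggtacgctccAAGATGGCtgcctc
These 6 genes share the 8 letters and had INDY effects from -0.86 (MRPS10 and MRPS27) to 0.23 (MRPL51). As 5 of them were shown for their different effects, this range follows from the choice. Of 20 members with the core anywhere in the window, harmine raised 7 and lowered 4, and INDY raised 11 and lowered 4. Of 49 without it, harmine raised 26 and lowered 5, and INDY raised 31 and lowered 6. The medians with and without the YY1 core were 0.04 and 0.16 for harmine, and 0.17 and 0.22 for INDY. The shares over all genes tested, again, were 24.9% higher and 22.8% lower with harmine, and 33.2% and 33.4% with INDY.

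**Figure D5:**
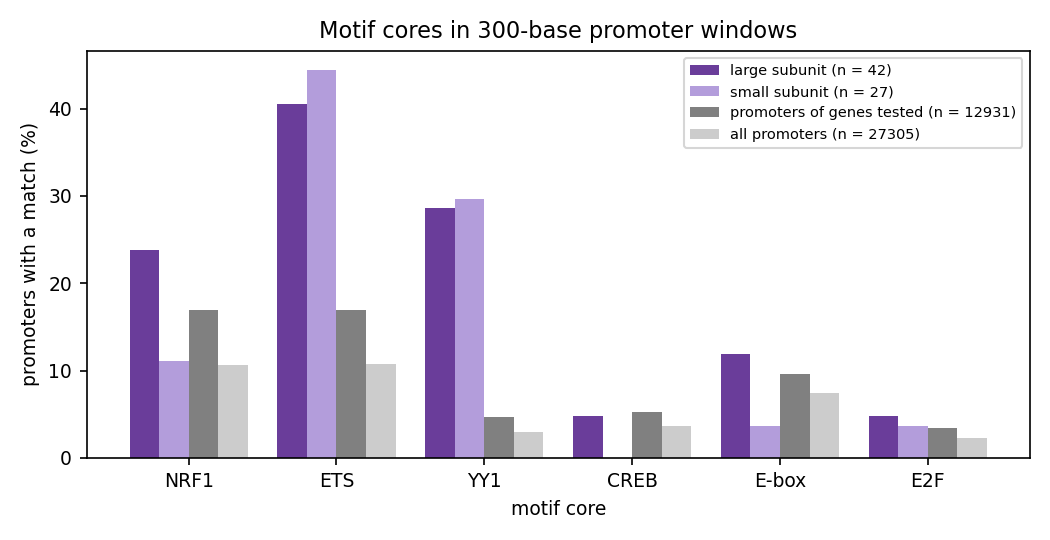
Share of 300-base promoter windows with a match to each motif core (y axis, %) in large subunit genes (n = 42), small subunit genes (n = 27), genes tested (n = 12931) and all promoters (n = 27305). ETS and YY1 cores stand out in both subunits, at 40.5% and 44.4% for ETS and 28.6% and 29.6% for YY1.

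Some members start head to head with another gene, and the share of all genes that do so was not counted. For 26 members a protein-coding neighbour that was tested started on the other strand within 1000 bases, in 28 pairs. MRPL32 and MRPL47 each entered with 2 such neighbours. With harmine both genes of a pair were called the same way in 12 pairs and opposite ways in 2, and with INDY the same way in 7 and opposite ways in 8. Among head-to-head pairs of other protein-coding genes tested, counted the same way from each side, 21.1% were called the same way and 12.9% opposite ways with harmine, and 28.9% and 23.1% with INDY. The members' shares were 42.9% and 7.1% with harmine and 25.0% and 28.6% with INDY. Pairs were few, and the differences in share were not tested. MRPL46 and MRPS11 are each other's neighbour on chromosome 15, with the starts of their reference transcripts 320 bases apart, so this pair entered the counts from both sides. Their effects differed: MRPS11 is given above, and MRPL46 had 15.8, 15.8, 16.5 and 15.9 CPM with water and 15.88, 16.01, 15.62 and 15.39 with harmine (-0.02 ± 0.04, adjusted p = 0.682), and rose with INDY by 0.18 (adjusted p = 0.0011). MRPL37 and CYB5RL, 137 bases apart, were both higher with harmine (0.52 and 0.76), and with INDY CYB5RL was lower (-0.28) while MRPL37 was higher. MRPL21 and IGHMBP2, 59 bases apart, went in opposite directions with INDY (-0.30 and 0.85). MRPL30 and MITD1, 126 bases apart, were both lower with harmine (-0.34 and -0.19), and with INDY MITD1 was not called (0.07, adjusted p = 0.0497). MRPS27 and PTCD2, 133 bases apart, also parted: PTCD2 was higher with harmine (0.31) and not called with INDY (0.06, adjusted p = 0.447), where MRPS27 fell.

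Other genes of mitochondrial translation moved in both directions, and their counts stand beside 24.9% higher and 22.8% lower with harmine and 33.2% and 33.4% with INDY among all genes tested. Of 5 subunits whose symbols do not begin with MRP, harmine changed 0 (2 were higher and 0 lower at an unadjusted p under 0.05 with edgeR, and DESeq2 and limma voom called 0), and INDY raised GADD45GIP1 (0.75 ± 0.06), AURKAIP1 (0.34 ± 0.06) and CHCHD1 (0.15) and lowered DAP3 (-0.22 ± 0.03), a GTP-binding protein of the small subunit. Of 29 factors for assembly and rRNA modification, harmine raised 9 and lowered 4, and INDY raised 15 and lowered 7 (31.0% and 13.8%, and 51.7% and 24.1%). The GTPase MTG2, which acts in large subunit assembly, rose with both (0.37 ± 0.04 and 0.96 ± 0.04), as did the 16S rRNA methyltransferase MRM2 (0.51 ± 0.03 and 0.58 ± 0.03). FASTKD2, an RNA-binding protein of the mitochondrial RNA granule, fell with both (-0.54 ± 0.07 and -1.20 ± 0.07). It stood at 44.03 ± 1.29 CPM (SD, n = 4) with water and 30.4 ± 0.49 with harmine, and at 44.9 ± 0.37 with DMSO and 19.6 ± 3.06 with INDY.

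Of 16 translation factors, harmine raised 6 and lowered 3, and INDY raised 7 and lowered 6 (37.5% and 18.8%, and 43.8% and 37.5%). The recycling factor MRRF rose with both (0.51 ± 0.04 and 0.61 ± 0.04), as did OXA1L, the insertase of the inner membrane at which the ribosome docks (0.56 ± 0.03 and 0.28 ± 0.03), while the GTPase GUF1 fell with both (-0.27 ± 0.07 and -1.12 ± 0.07). The release factor MTRF1L had the largest fall with harmine (-0.46 ± 0.05) and rose with INDY (0.45 ± 0.05). Of 20 genes for charging mitochondrial tRNAs, harmine raised 9 and lowered 5, and INDY raised 8 and lowered 8 (45.0% and 25.0%, and 40.0% each way). With harmine the largest rise was that of PARS2 (0.41 ± 0.06) and the largest fall that of YARS2 (-0.46 ± 0.04), the prolyl- and tyrosyl-tRNA synthetases. With INDY HARS2, for histidine, rose most (0.85 ± 0.04). Among 6 genes for transcription of mitochondrial DNA, harmine raised 2 and lowered 1, and INDY raised 4 (POLRMT, TFAM, TEFM and MTERF1) and lowered 0, also 0 at an unadjusted p under 0.05 with edgeR and 0 with DESeq2 and limma voom. MTERF1, a termination factor, was lower with harmine (-0.26) and higher with INDY (0.43). TFAM, which packages mitochondrial DNA and starts its transcription, rose by 0.19 ± 0.03 with harmine and 0.40 ± 0.03 with INDY.

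Of 11 nuclear regulators of mitochondrial genes, harmine raised 2 and lowered 4, and INDY raised 3 and lowered 3 (18.2% and 36.4%, and 27.3% each way). With so few genes, the INDY shares lie near the 33.2% and 33.4% of all genes tested. The coactivator PPARGC1A was lower with both, at 3.71 ± 0.72 CPM (SD, n = 4) with water and 2.30 ± 0.25 with harmine (-0.68 ± 0.15, adjusted p = 0.000865), and 2.47 ± 0.48 with DMSO and 1.09 ± 0.20 with INDY (-1.17 ± 0.17, adjusted p = 5.54e-06). With harmine GABPB2 rose most (0.57) and TFEB fell most (-0.82 ± 0.09). Values follow for 3 of the factors named with the promoter cores. GABPA was lower with harmine (-0.23 ± 0.04) and not called with INDY (0.09 ± 0.04, adjusted p = 0.0542). YY1 was not called with harmine (-0.01 ± 0.03, adjusted p = 0.899) and was higher with INDY (0.29 ± 0.03), and NRF1 had 0.10 ± 0.05 with harmine (adjusted p = 0.0945) and was higher with INDY (0.36 ± 0.05).

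The 13 messages of mitochondrial DNA, which the ribosome translates, were all counted in these poly(A)-selected libraries. MT-ND6, whose message is known to lack a regular poly(A) tail, stood at 22.1 CPM with water. With harmine 6 of 13 were higher and 0 lower (0 lower also at an unadjusted p under 0.05 with edgeR, and 0 with DESeq2 and limma voom), at a median log2 fold change of 0.22. These are 46.2% and 0%, beside 24.9% and 22.8% of all genes tested, whose median was 0.02. The 6 higher messages were MT-CYB, MT-ND2, MT-ND3, MT-ND4, MT-ND4L and MT-ND5. MT-ND5, a subunit of complex I, went from 984 ± 84.0 to 1307 ± 119 CPM (SD, n = 4), a log2 fold change of 0.41 ± 0.11 (adjusted p = 0.00264). With INDY 0 were higher (1 at an unadjusted p under 0.05 with edgeR, 0 with DESeq2 and limma voom) and 1 lower, MT-ND3 (-0.27 ± 0.05, adjusted p = 0.000106), at a median of -0.13. These are 0% and 7.7%, beside 33.2% and 33.4% of all genes tested, whose median was -0.01.

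The vehicles differed little. Between DMSO and water, 1 member was higher (MRPL41, 0.25 ± 0.06, adjusted p = 0.00832) and 1 lower (MRPL49, -0.13 ± 0.03, adjusted p = 0.00612), beside 1.58% higher and 2.71% lower among all genes tested. Such calls were few and moved with the setting, at 0 to 5 higher and 0 to 3 lower members over the alternatives run. MRPL49 stood at 125 to 129 CPM with water and 113 to 118 with DMSO. The vehicle difference of MRPL41 is smaller than its change with either compound, 0.44 and 0.85.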

How the data were processed

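RNA of 16 samples was made into stranded poly(A) libraries, and groups and replicate numbers follow the sample labels. The deposited file holds estimated counts per gene that the authors made with Salmon 1.1 by selective alignment to GENCODE 37 transcripts (decoy: GRCh38). Salmon was run with its options for sequence and GC bias, and transcripts were then collapsed to genes with tximport. In each library 27.7 to 31.9% of values were not whole (tolerance 1e-06), and counts were rounded. The submitters' notes name edgeR 3.28.1 for their own tests. Reads were not reprocessed.

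Genes were tested with edgeR 4.0.16 in R 4.3.3 (filterByExpr, TMM factors of 0.982 to 1.02, glmQLFit and glmQLFTest) in one model of the 4 groups, with 20446 of 37914 genes with any count tested. Each compound was set against its own vehicle, the 2 effects against each other, and the vehicles against each other. P-values were adjusted by Benjamini-Hochberg across every gene tested (threshold 0.01), and the SE is the log2 fold change divided by the root of F. CPM are TMM-normalized. Alternatives were DESeq2 1.42.0, limma voom (limma 3.58.1), other scaling and filters, a replicate block, leaving out each library and, chosen after seeing the data, leaving out pairs of libraries that stood apart and counts by gene span.

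Of the members, 73 matched GENCODE 44 by Ensembl identifier and 5 by symbol (MRPL23, MRPL45, MRPS12, MRPS18B and MRPS36, which carry identifiers of alternate loci). Gene spans are those of GENCODE 44. The 79 rows of their pseudogenes together held 0.227% of the members' CPM. Named genes were, for each subunit, the 4 largest rises and falls with each compound among called members, the 4 largest differences between effects in each direction, members called in opposite directions, the S18 family, the 3 highest and lowest per kilobase, and the largest called rise and fall of each other list. A gene that this rule names is not reported here. Genes named beyond this (the stalk proteins, MRPS12, MRPL46, GABPA, YY1 and members of small counts) were chosen after their values were seen. Members and lists were chosen with earlier results of these data known.

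The spread of 4 libraries per group sets the precision of most values (biological coefficient of variation 0.0561). For genes of a few CPM, counting error adds to it.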

Additional observations from a re-analysis of the deposited data

Results flagged for a closer look

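Among the members named in the report, 148 groups of 4 libraries were examined for a library far from the other 3, and 8 were found, where chance gives about 1 in 20. They were harmine replicate 2 for MRPL32 (35.0 CPM, the highest), MRPL33 (49.7, the lowest) and MRPL51 (198, the lowest), harmine replicate 1 for MRPS26 (20.8, the lowest), water replicate 4 for MRPL34 (20.2, the lowest), water replicate 3 for MRPS28 (38.9, the highest), DMSO replicate 1 for MRPS6 (30.5, the highest) and INDY replicate 3 for MRPS18A (42.1, the highest).

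Differences between the effects of the compounds were tested directly. The harmine effect was above the INDY effect in 14 members and below it in 27. On the log2 scale the differences were 0.89 for MRPS27, 0.66 for MRPS11, 0.65 for MRPS10, 0.64 for MRPL24, 0.58 for MRPL21 and 0.55 for MRPS18B. They were -1.03 for MRPL54, -0.88 for MRPS6, -0.64 for MRPS18C, -0.59 for MRPS34, -0.49 for MRPL32, -0.42 for MRPS35 and -0.36 for MRPL34. The MRPS6 value rests on uneven water and INDY libraries.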

How the results depend on the processing

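No median and no call of a named member reversed direction under any alternative. Effects near 0 that were not called can change sign with the scaling. With a fold change of at least 1.5, harmine called 0 and 0 large and 0 and 0 small subunit genes (higher and lower), INDY called 4 and 1 large and 2 and 2 small, the difference between effects 4 above and 4 below, and DMSO against water 0 and 0. For DMSO against water, members higher numbered 4 with DESeq2, 0 with upper-quartile factors, library totals or limma voom, 2 with no filter and 5 at an adjusted p under 0.05, and members lower numbered 2 with DESeq2, 0 with no filter and 3 at 0.05. With each library left out in turn they numbered 0 to 1 and 0 to 2, without INDY 1 and 3 they were 3 and 2, and without water 1 and 4 they were 0 and 0. The median of large subunit genes with harmine was 0.02 (0.01525) by library totals alone, and that of small subunit genes 0.02223, where the median of all genes was -0.03. The small subunit median with INDY was 0.1317 with upper-quartile factors, 0.1287 with library totals, 0.1381 with no filter, 0.1441 without INDY 1 and 3, and 0.1406 to 0.1694 with 1 library left out. Without INDY 1 and 3, 5 large subunit genes were lower with INDY. With 1 library left out, large subunit genes higher and lower numbered 20 to 23 and 6 to 8 with harmine and 30 to 32 and 6 to 9 with INDY, and small subunit genes 12 to 14 and 4 to 6, and 15 to 16 and 5. Members under 10 kb lower with harmine numbered 1 by library totals and 1 without water 1 and 4. The cause of these changes was not tested.

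For the 37 named members, 1748 of 1776 values with 1 library left out stayed on the same side of the threshold, 19 lost their call and 9 gained one. Of 851 values under the other alternatives 834 stayed, 9 lost their call and 8 gained one. The calls lost most often were those of MRPS14 (0.19, adjusted p = 0.00943) and MRPL1 with harmine. Without water 1 and 4 the harmine calls of MRPL14 (-0.14, adjusted p = 0.0221) and MRPS34 (0.16, adjusted p = 0.0289) were lost too.

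Same-numbered libraries of a control and its treatment correlated at -0.05 to 0.09 in their deviations from group means, so the numbers were not taken to pair them. With the replicate block, 0 members were lower with DMSO than with water (1 without it), harmine left 23 large subunit genes higher and 6 lower, and INDY 31 and 7.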
